A study of Mus musculus with 11 samples.

Results

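Gene expression was compared between 2 mouse models of medulloblastoma, a tumour of the cerebellum, by taking the 3 libraries of N1ICD tumours and the 3 libraries of S100b-cell tumours among the 11 libraries of the series. They were chosen by their labels, and all genes of the raw count table entered the comparison. The N1ICD tumours carried MYC, Gfi1 and N1ICD, with expression in Math1-positive cells. The S100b-cell tumours carried MYC and Gfi1, without N1ICD, with expression in S100b-positive cells. Both groups therefore shared MYC and Gfi1, and differed at the same time in N1ICD and in the cells that expressed the oncogenes, so these factors cannot be told apart. The other 5 libraries, constitutive MYC/Gfi1 tumours (n = 2) and constitutive MYC/Otx2 tumours (n = 3), are used here for their levels and for the estimate of the spread. Mice of all 4 groups were of strain CD1, and tumours were frozen fresh with no further treatment. The labels used here do not say how expression was restricted to a cell type, how old the mice were or how many animals each group held. P-values therefore measure the spread between these libraries, which may be technical.

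N1ICD is the intracellular domain of the receptor Notch1. Ligand binding normally cuts this domain free, and it then enters the nucleus, joins the DNA-binding protein RBPJ and switches on repressor genes of the Hes and Hey families. In the cerebellum, Math1 (Atoh1) marks granule neuron progenitors, whereas S100b is a calcium-binding protein of glial cells. Notch signals hold neural progenitors in an undifferentiated state, and they also shape the mural cells of vessel walls, that is pericytes and smooth muscle.

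The libraries of the groups differed in depth and in mitochondrial content. The N1ICD libraries held 2.58 to 3.38 M counts and the S100b-cell libraries 12.77 to 15.19 M, so a gene with no count in an N1ICD library could still be present at up to 1.05 to 1.29 CPM (counts scaled to library size; 3 counts). Mitochondrially encoded genes took 23.2% to 27.6% of counts in the N1ICD and 14.7% to 18.5% in the S100b-cell libraries (two-sided exact permutation test, p = 0.10, the smallest that 3 against 3 allows). With every library thinned to the smallest, 202 genes were called, 157 of them shared with the 185 of the full libraries. N1ICD replicate 1 stood apart. Its Spearman correlation with N1ICD replicate 2 was 0.808, while N1ICD replicate 2 correlated with S100b-cell replicate 1 at 0.865. With N1ICD replicate 3, however, N1ICD replicate 1 correlated at 0.86, above its 0.808 to 0.815 with the S100b-cell libraries. Xist was abundant in the 3 S100b-cell libraries and in N1ICD replicates 1 and 3, and Ddx3y of the Y chromosome was at 317 counts in N1ICD replicate 2 and at no more than 1 in the other 5. Values are therefore given per library, and values without N1ICD replicate 1 stand beside named genes and lists where its removal changed a call or a sign.

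Of 15228 genes tested, 185 (1.21%) passed an adjusted p of 0.05 in edgeR's quasi-likelihood fit over the 4 groups, 123 higher (0.808%) and 62 lower (0.407%) in the N1ICD tumours. The rises include the Notch-induced repressor genes Hey1, Hey2 and Heyl and the pericyte genes Foxs1 and Abcc9, and the falls include Ptger3, Kcnj3, Bsn, Robo2, Bmp4 and Bmp7. Each of the 185 genes had its 3 N1ICD libraries all above or all below the 3 S100b-cell libraries, as had 26.1% of all genes tested. The count rests on few libraries. It was 9 without S100b-cell replicate 3, 18 without S100b-cell replicate 2, 106 without S100b-cell replicate 1 and 111 without N1ICD replicate 3. It was 137 without N1ICD replicate 2 and rose to 262 without N1ICD replicate 1. Leaving out a constitutive MYC/Otx2 library gave 79 to 91 calls and leaving out MYC/Gfi1 replicate 2 gave 283. DESeq2 called 1360 genes (8.93%; 5.68% higher and 3.25% lower), limma-voom 131 (0.860%; 0.742% higher and 0.118% lower) and a fit of the 6 libraries alone 83. At an unadjusted p under 0.05, 2844 genes (18.7%) differed, 9.48% higher and 9.19% lower, and counts at that level in the gene lists are to be read against these shares. Counts of list genes called by edgeR are likewise to be read against 0.808% higher and 0.407% lower. Each of the 185 genes kept its direction in every one of the fits above in which it was tested. Their libraries did not overlap, which largely fixed this outcome, so it adds no support.

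**Figure D1:**
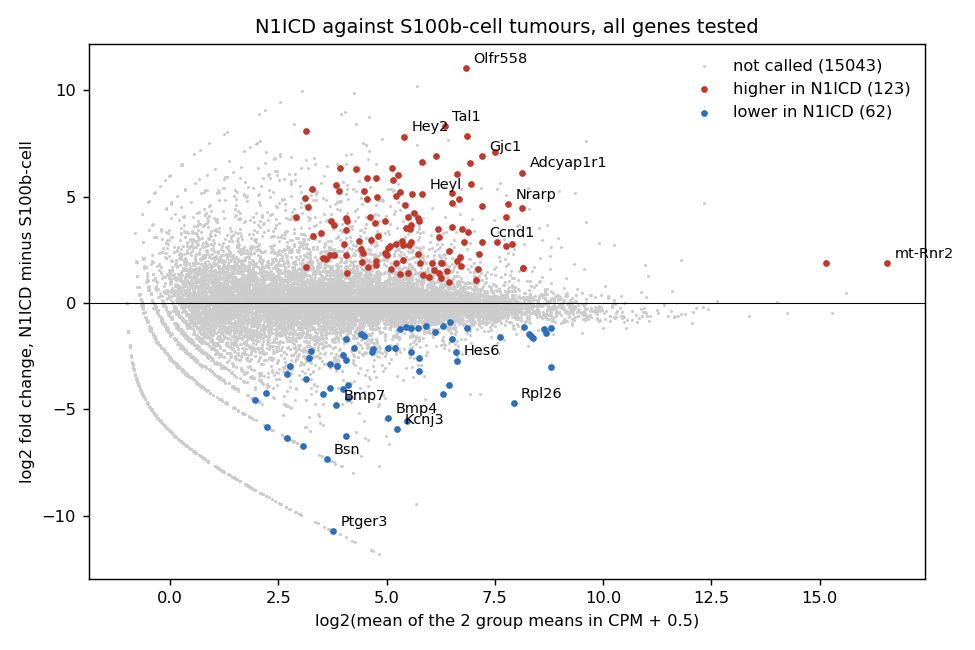
Log2 fold change (N1ICD minus S100b-cell, vertical axis) against mean level (horizontal axis, log2(CPM + 0.5)) for each gene tested, 1 point per gene. Red points are the 123 genes called higher and blue points the 62 called lower in the N1ICD tumours. The ribosomal RNA genes of the mitochondrion lie far to the right, and Ptger3, with no count in any N1ICD library, lies lowest among the called genes.

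The levels in the constitutive tumours show which group stood apart in a called gene. Among the 123 genes higher in the N1ICD tumours, all 3 N1ICD libraries lay above the other 8 libraries of the series in 95, a pattern held by 4.93% of all genes tested. In 25 of the 123 the S100b-cell libraries lay below the other 8 (1.46% of all genes). Among the 62 genes lower in the N1ICD tumours, the N1ICD libraries lay below the other 8 in 41 (3.70% of all genes) and the S100b-cell libraries lay above the other 8 in 13 (3.45% of all genes). The comparison of these 2 groups fixed part of each pattern, so the counts are a description.

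Genes named in the labels were read next. Whether reads from the transgenes were counted at these mouse genes was not tested, so the values do not check the labels. Myc, a growth-promoting transcription factor, was at 0.429, 1.05 and 2.44 CPM in N1ICD replicates 1 to 3 and at 4.21, 2 and 3.75 CPM in S100b-cell replicates 1 to 3, and did not pass (adjusted p = 0.356). Gfi1, a zinc finger repressor, was at 4.72, 0.697 and 4.87 CPM against 13.9, 2.08 and 3.99 CPM, with overlapping libraries (adjusted p = 0.633). Notch1 had 11 counts over the N1ICD and 10 counts over the deeper S100b-cell libraries. Its mean was 1.499 CPM in the N1ICD and 0.2292 CPM in the S100b-cell libraries. The libraries overlapped and it did not pass (edgeR adjusted p = 0.3722). Atoh1, which encodes Math1, had no count in any N1ICD library and 5, 1 and 0 counts in the S100b-cell libraries. S100b was at 11.2, 18.5 and 30.4 CPM in the N1ICD and at 1.23, 27.7 and 63.8 CPM in the S100b-cell libraries, so the groups overlapped (adjusted p = 0.846). Otx2, the gene of the third model, was at 13.7, 0 and 0.811 CPM against 0, 2.77 and 0 CPM (adjusted p = 0.519).

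The Hey genes, repressors that Notch induces, rose in the N1ICD tumours. Hey2 (chromosome 10, 30832359 to 30842801, mm10), a repressor of the Hey family, was at 106, 73.6 and 70.2 CPM in the N1ICD replicates and at 0.582, 0 and 0.469 CPM in the S100b-cell replicates. It rose by 7.83 ± 1.04 log2 (SE, edgeR adjusted p = 0.0151), and was at no more than 0.932 CPM in any of the 5 constitutive libraries. Heyl (chromosome 4, 123233556 to 123249875), of the same family, was at 82.7, 145 and 99 CPM against 4.14, 1.38 and 3.91 CPM. It rose by 5.11 ± 0.61 log2 (SE, edgeR adjusted p = 0.00880), with no overlap between the groups. Hey1 (chromosome 3, 8663359 to 8667256), the third member, was at 97.3, 54 and 87.6 CPM against 11.7, 2.28 and 6.72 CPM, a rise of 3.53 ± 0.68 log2 (SE, edgeR adjusted p = 0.0412). The Hey1 call was lost in 12 of the 21 alternatives run, among them the fit without N1ICD replicate 1 (edgeR adjusted p = 0.0594). All 3 Hey genes were thus higher in every N1ICD library than in any other library of the series.

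Some other Notch targets rose as well. Nrarp (chromosome 2, 25180758 to 25183339), an ankyrin repeat protein that feeds back on Notch signalling, was at 354, 463 and 477 CPM against 17.2, 9.68 and 24.9 CPM (4.64 ± 0.73 log2, SE, edgeR adjusted p = 0.0227). Ccnd1 (chromosome 7, 144929931 to 144939925), which encodes cyclin D1 and drives entry into the cell cycle, was at 293, 163 and 313 CPM against 51.2, 20.9 and 34.7 CPM (2.85 ± 0.51 log2, SE, edgeR adjusted p = 0.0331). The S100b-cell libraries were in turn above the 5 constitutive libraries for Ccnd1, where it did not exceed 10.02 CPM. Nrip2, a nuclear receptor-interacting protein gene, was at 24.4, 65.2 and 43.4 CPM against 0.841, 1.38 and 2.27 CPM and rose by 4.88 ± 0.82 log2. Hes5, a Hes family repressor, did not pass (adjusted p = 0.101): it was at 1399, 3.14 and 386 CPM in the N1ICD replicates, with replicate 2 below all S100b-cell libraries (22.5, 11.1 and 8.52 CPM). Id1, an inhibitor of basic helix-loop-helix factors, was at 250.4, 19.9 and 129 CPM against 59.5, 29.5 and 58.6 CPM, with overlap (adjusted p = 0.352). Hes1, a Hes family gene of the same list named here in addition, did not pass either. Its mean was 20.8 CPM in the N1ICD and 14.5 CPM in the S100b-cell libraries, with overlap (log2 change 0.52, edgeR adjusted p = 0.661).

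Of 15 Notch targets tested, 7 rose (0.808% of all genes), 0 fell and 8 did not pass. Their median log2 change was 2.85 against -0.057 over all genes tested. Members of this and the other lists were chosen with earlier results of these data known, so the counts are a description. At an unadjusted p under 0.05, 8 were higher and 0 lower, and DESeq2 and limma-voom called 8 and 6 higher. Without S100b-cell replicates 2 and 3 in turn, 2 and 0 of the targets were called, with the median between 2.58 and 3.70 over the libraries left out. Among 24 receptors, ligands and cofactors of the pathway, 2 rose, 0 fell and the median was 0.18. These were the receptor gene Notch3 (chromosome 17, 32120820 to 32166852), at 11.2, 122 and 97.8 CPM against 3.23, 1.80 and 1.09 CPM, and the ligand gene Jag1 (chromosome 2, 137081456 to 137116644), at 47.2, 375 and 160.3 CPM against 13.9, 21.9 and 17.2 CPM. They rose by 5.22 ± 0.85 and 3.46 ± 0.69 log2 (SE, edgeR adjusted p = 0.0249 and 0.0459), and both were lowest in N1ICD replicate 1. Both calls were lost without S100b-cell replicate 2 or 3.

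One Hes family gene moved the other way. Hes6 (chromosome 1, 91411483 to 91414038), named here after its values were seen, encodes a family member that promotes neuronal differentiation and counteracts Hes1. It was at 30.4, 16.7 and 30.8 CPM in the N1ICD and at 197, 166 and 145 CPM in the S100b-cell replicates, and fell by 2.71 on the log2 scale (SE 0.32, edgeR adjusted p = 0.00880). In the constitutive tumours it was between 169 and 309 CPM, so the N1ICD libraries were the low ones, and its call held in all 21 alternatives run.

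**Figure D2:**
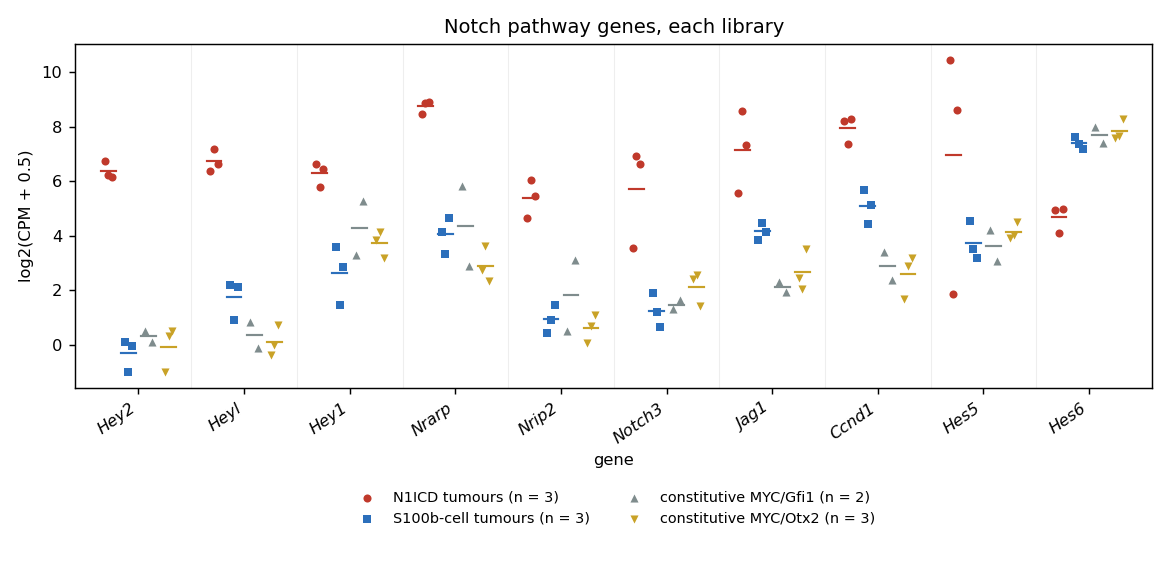
Level of 10 Notch pathway genes (vertical axis, log2(CPM + 0.5)) in each library, 1 point per library, with a line at each group's mean. The 3 N1ICD libraries lie above the other 8 for Hey2, Heyl, Hey1, Nrarp, Nrip2, Notch3, Jag1 and Ccnd1, are spread widely for Hes5, and lie below the other 8 for Hes6.

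Promoter sequence was at hand for 8 of the 15 Notch targets (RefSeq, GRCm38.p6), and 3 are printed because these genes are well known Notch targets and 2 of them were called. Each run gives the 250 bases before the start in the RefSeq table, which for Hey2 lies 18 bases inside the gene end printed above (GENCODE), 5′ to 3′ on the gene's strand, with TGGGAA (the core of RBPJ sites) or its reverse complement TTCCCA, and the E-box CACGTG, in capitals.
Hey2, chr10:30842784-30843033, minus strand: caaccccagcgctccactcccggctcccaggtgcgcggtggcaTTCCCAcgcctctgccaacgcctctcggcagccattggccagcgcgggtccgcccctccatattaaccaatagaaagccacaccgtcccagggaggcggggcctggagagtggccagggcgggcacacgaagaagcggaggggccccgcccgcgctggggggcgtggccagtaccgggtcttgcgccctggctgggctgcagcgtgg
Nrarp, chr2:25180508-25180757, plus strand: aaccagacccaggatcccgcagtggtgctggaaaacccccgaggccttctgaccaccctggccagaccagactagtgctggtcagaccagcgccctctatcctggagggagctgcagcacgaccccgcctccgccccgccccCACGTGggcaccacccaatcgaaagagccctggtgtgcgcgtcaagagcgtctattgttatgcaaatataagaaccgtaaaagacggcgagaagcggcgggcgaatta
Hes5, chr4:154960673-154960922, plus strand: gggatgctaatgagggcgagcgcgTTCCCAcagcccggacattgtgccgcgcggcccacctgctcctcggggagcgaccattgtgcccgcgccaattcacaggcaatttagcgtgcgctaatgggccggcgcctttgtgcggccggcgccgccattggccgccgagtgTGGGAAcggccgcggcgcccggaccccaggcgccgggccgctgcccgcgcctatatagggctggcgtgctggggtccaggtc
The RBPJ core was found once in Hey2, 207 bases before the start, and in Hes5 at 226 and 82 bases before it. Nrarp held no RBPJ core and 1 E-box in this window. The core occurred in 3 of the 8 promoters, and in 21.6% of 32817 RefSeq promoter windows of this length (CACGTG in 6.02%), so a match is a description of the letters.

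Some genes of mural cells rose as well. The list of pericyte and smooth muscle genes had 4 of 18 tested members called higher, 0 lower and a median log2 change of 4.80. Of the 18, 10 did not overlap between the groups, each higher in N1ICD. Among all 15228 genes tested, 1682 did not overlap and were higher in N1ICD. Heyl and Notch3 stand in this list as well as among the Notch targets, and the other called members were Foxs1 and Abcc9. Foxs1 (chromosome 2, 152931898 to 152933208), a forkhead factor of pericytes, was at 118, 60.3 and 35.3 CPM against 3.69, 1.73 and 1.02 CPM. It rose by 5.04 ± 0.75 log2 (SE, edgeR adjusted p = 0.0187). Abcc9 (chromosome 6, 142587862 to 142702315), a subunit of the ATP-sensitive potassium channel of pericytes, was at 36.4, 164 and 389 CPM against 1.49, 7.61 and 10.6 CPM. Its rise was 4.91 ± 0.93 log2 (SE, edgeR adjusted p = 0.0406).

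The contractile genes of the list differed among the N1ICD libraries. Acta2, smooth muscle actin, was at 24.9, 2584 and 1219 CPM in the N1ICD replicates and at 23, 39.8 and 43.9 CPM in the S100b-cell replicates (adjusted p = 0.0889). Mylk, myosin light chain kinase, was at 25.7, 2325 and 616 CPM against 41, 19.3 and 17.9 CPM (adjusted p = 0.0781). In both genes N1ICD replicate 1 lay within the S100b-cell range, and replicates 2 and 3 lay far above it. Rgs5, a G protein regulator of pericytes, was at 151, 3409 and 822 CPM against 57.6, 143 and 108 CPM and did not pass (adjusted p = 0.0903). Without N1ICD replicate 1, 10 of the 18 genes were called higher, Acta2, Mylk and Rgs5 among them (edgeR adjusted p = 0.0124, 0.00948 and 0.0243), and the median was 4.85. Without S100b-cell replicates 2 and 3 in turn, 1 and 0 were called, while DESeq2 called 15 and 16 were higher at an unadjusted p under 0.05.

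Several of the largest rises over all genes were signalling genes known from contractile or vascular cells. Gjc1 (chromosome 11, 102799579 to 102819700), the gap junction protein connexin 45, was at 121, 459.8 and 298 CPM against 1.88, 2.28 and 3.21 CPM (6.89 ± 0.94 log2, SE, edgeR adjusted p = 0.0166). Gucy1a3 and Gucy1b3, neighbours on chromosome 3, encode the subunits of the soluble guanylate cyclase that senses nitric oxide. Gucy1a3 was at 44.6, 366 and 169 CPM against 4.66, 2.14 and 1.72 CPM, and Gucy1b3 at 45, 337 and 339 CPM against 3.43, 2.63 and 1.33 CPM. They rose by 6.08 ± 1.13 and 6.59 ± 0.97 log2 (SE, edgeR adjusted p = 0.0381 and 0.0187), so both subunits of the enzyme were higher in each N1ICD library.

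Receptor genes rose too. Adra1a (chromosome 14, 66635251 to 66771168), an alpha-1 adrenergic receptor, was at 6, 57.9 and 48.7 CPM against 0.259, 0.346 and 0.782 CPM and rose by 6.31 ± 0.92 log2 (SE, edgeR adjusted p = 0.0187). Gpr20, an orphan receptor gene, was at 4.72, 26.5 and 18.7 CPM and had 2 counts over the 3 S100b-cell libraries, a ratio of pooled levels of 370.5 (95% counting interval 101 to 3091). Such intervals take reads as independent and cover counting error only, not the spread between libraries. Olfr558 (chromosome 7, 102702215 to 102712064), an olfactory receptor gene, was at 0.857, 577 and 108 CPM against 0.0647, 0.207 and 0 CPM, so its rise of 11.04 ± 2.09 log2 (SE, edgeR adjusted p = 0.0459) came from N1ICD replicates 2 and 3. Rbpms2, an RNA-binding protein gene of smooth muscle, was at 10.7, 325 and 82 CPM against 1.17, 1.31 and 0.938 CPM. In these 4 genes replicate 1 was the lowest N1ICD library.

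In the endothelial list 1 gene passed. Of 20 genes tested 1 was called higher and 0 lower, and the median was 0.55. Of the 20, 7 did not overlap between the groups, each higher in N1ICD (1682 of all 15228 genes tested). At an unadjusted p under 0.05, 5 were higher. DESeq2 also called 5 higher (5.68% of all genes) and limma-voom called 0. Leaving out S100b-cell replicate 2 or 3 gave 0 calls. Without N1ICD replicate 1, 2 were called higher. The called member was Tal1 (chromosome 4, 115056426 to 115071755), a transcription factor of blood and endothelium, at 3.86, 193 and 289 CPM against 0.453, 0.692 and 0.313 CPM (8.33 ± 1.57 log2, SE, edgeR adjusted p = 0.0406). Kdr, the receptor for vascular endothelial growth factor, was at 90.5, 138 and 131 CPM against 41.5, 50.2 and 27.4 CPM and did not pass (adjusted p = 0.133). In bulk tumours more cells of a type and more RNA per cell cannot be told apart.

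**Figure D3:**
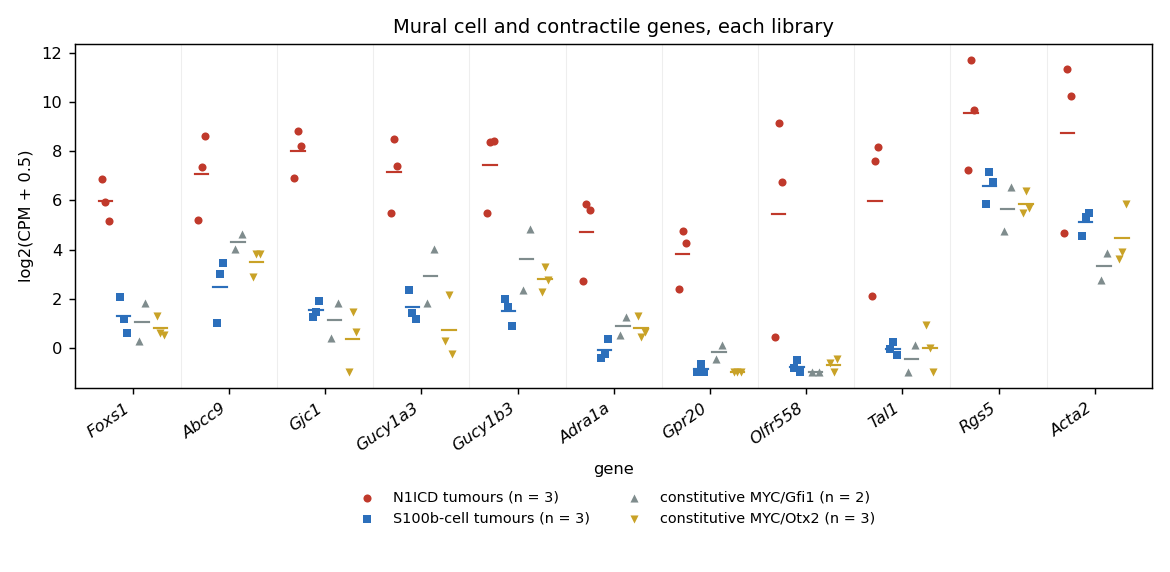
Level of 11 genes of mural cells and contractile signalling (vertical axis, log2(CPM + 0.5)) in each library, 1 point per library, with a line at each group's mean. The N1ICD libraries lie above the S100b-cell libraries for each gene except Acta2, where N1ICD replicate 1 (24.9 CPM) lies within the S100b-cell range.

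Genes of the matrix around vessels were higher in part. Among 22 collagen and laminin genes 1 was called higher (0.808% of all genes), 0 lower, and the median was 1.62. At an unadjusted p under 0.05, 9 were higher, and 2 were called without N1ICD replicate 1. DESeq2 called 4 higher and limma-voom 1, and leaving out S100b-cell replicate 2 or 3 gave 0 calls. Lamc1, a laminin chain of basement membranes, was at 44.6, 131 and 39 CPM against 10.4, 11 and 7.27 CPM and rose by 2.90 ± 0.51 log2 (SE, edgeR adjusted p = 0.0322). Col4a1, a collagen of the same membranes, was at 281, 493 and 342 CPM against 98.2, 74.3 and 47.5 CPM without overlap and did not pass (adjusted p = 0.0758). The fibroblast and meningeal list did not follow: 0 of 19 passed in either direction, with 3 higher and 3 lower at an unadjusted p under 0.05, DESeq2 calls of 2 higher and 3 lower, and a median of -0.41. Of 12 skeletal muscle genes tested 1 rose, Tnnt3, a fast troponin, at 35.1, 28.6 and 63.3 CPM against 0.647, 0.346 and 2.27 CPM, and the list median was 1.65 (-0.52 without N1ICD replicate 3).

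The remaining large rises had no single theme. Adcyap1r1 (chromosome 6, 55451978 to 55501451), the receptor for the peptide PACAP, was at 1126, 267 and 268 CPM against 7.63, 7.40 and 8.60 CPM (6.13 ± 1.08 log2, SE, edgeR adjusted p = 0.0331). Sh3bgr, a small SH3-binding protein gene, was at 531, 18.5 and 145 CPM against 0.647, 1.11 and 1.25 CPM, and Stom, the membrane protein stomatin, at 156, 18.8 and 27.6 CPM against 1.29, 0.692 and 0.469 CPM. Daam2, a formin-related gene of Wnt signalling, was at 157, 42.5 and 25.6 CPM against 0.582, 1.18 and 1.72 CPM. These 4 genes were highest in N1ICD replicate 1. Prdm16, a zinc finger regulator, was at 17.1, 49.9 and 19.5 CPM against 0.582, 0.346 and 0.0782 CPM, and Crispld2, a secreted protein gene, at 30.0, 1012 and 36.9 CPM against 1.62, 2.42 and 3.91 CPM, so the latter rise rested mostly on replicate 2. The edgeR adjusted p of these last 5 genes ran from 0.0251 to 0.0484.

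Bone morphogenetic protein (BMP) signalling, which acts through secreted ligands, held 2 falls and 1 rise. Bmp4 (chromosome 14, 46383520 to 46390669) was at 2.57, 1.39 and 0.406 CPM in the N1ICD and at 48.3, 46.1 and 94.5 CPM in the S100b-cell replicates, and fell by 5.43 on the log2 scale (SE 0.87, edgeR adjusted p = 0.0232). Bmp7 (chromosome 2, 172868012 to 172940321) was at 2.14, 0.349 and 0.406 CPM against 20.9, 42 and 17.1 CPM and fell by 4.82 on the log2 scale (SE 0.78, edgeR adjusted p = 0.0241). The reference tumours differed between these genes: Bmp4 was highest in the S100b-cell libraries of all 11, while Bmp7 was lowest in the N1ICD libraries and reached 102 CPM in the MYC/Otx2 tumours. Msx1, a homeobox gene that BMPs can induce, was at 27.9, 12.6 and 8.93 CPM against 0.259, 0.415 and 1.49 CPM and rose by 4.50 ± 0.91 log2 (SE, edgeR adjusted p = 0.0469). Of 17 genes of this list tested 1 rose and 2 fell (0.808% and 0.407% of all genes), and the median was 0.40. DESeq2 called 1 higher and 2 lower, and limma-voom 1 higher and 0 lower. Leaving out S100b-cell replicate 2 or 3 gave 0 calls in either direction. Without N1ICD replicate 1 the Msx1 call was lost (edgeR adjusted p = 0.0805), 3 genes were called lower and the median was -0.32.

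A pair of prostaglandin genes fell. Ptger3 (chromosome 3, 157566892 to 157645888), the EP3 receptor for prostaglandin E2, had no count in any N1ICD library and was at 23.7, 36.2 and 18.9 CPM in the S100b-cell replicates. It was at least 67.1-fold lower in the N1ICD tumours, taking 3 counts over the N1ICD group as the floor (edgeR adjusted p = 0.00153). Its call held in all 21 alternatives run, and the other 5 libraries held between 5.08 and 51.7 CPM. Ptgis (chromosome 2, 167191805 to 167240604), prostacyclin synthase, was at 0.857, 1.05 and 3.65 CPM against 13, 118 and 128 CPM (log2 change -5.54 ± 0.91, SE, edgeR adjusted p = 0.0257), with S100b-cell replicate 1 well below replicates 2 and 3.

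Among the largest falls were Kcnj3, Bsn, Epha5, Robo2 and Slc6a2, genes known from neurons. Kcnj3 (chromosome 2, 55435970 to 55598145), a G protein-gated potassium channel subunit, was at 0.857, 1.05 and 1.62 CPM against 80.2, 91.8 and 48.6 CPM and fell by 5.95 on the log2 scale (SE 0.47, edgeR adjusted p = 7.36e-04). Its call also held in all 21 alternatives, and it was at 170 and 301 CPM in the MYC/Gfi1 tumours. Bsn (chromosome 9, 108096022 to 108190384), the presynaptic scaffold bassoon, had 1 count over the N1ICD libraries and was at 19.9, 25.5 and 24.7 CPM in the S100b-cell libraries, a pooled ratio of 178 (95% counting interval 31.9 to 7040). Epha5, an ephrin receptor of growing axons, had 3 counts over the N1ICD libraries against 52.7, 19.8 and 23.1 CPM, a ratio of 83.5 (95% counting interval 28.5 to 405). Robo2, a receptor for Slit guidance cues, was at 1.29, 0.349 and 2.84 CPM against 34.7, 15.3 and 19.7 CPM (log2 change -3.98 ± 0.77, SE, edgeR adjusted p = 0.0415). Slc6a2, the noradrenaline transporter, had 1 count over the N1ICD libraries and was at 3.43, 20.6 and 11.8 CPM in the S100b-cell libraries, which were the highest of the series.

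Transcription and signalling genes were among the falls too. Dach2, a transcriptional cofactor gene on the X chromosome, had 1 count over the N1ICD libraries against 16.3, 10.4 and 20.2 CPM in the S100b-cell libraries. Foxo6, a forkhead factor of neurons, was at 0.857, 0.349 and 2.03 CPM against 23.9, 18.9 and 19.9 CPM, and Rasd2, a small GTPase gene, at 0.857, 0.697 and 2.84 CPM against 12.9, 44 and 39 CPM (edgeR adjusted p = 0.0342 for each). Hist3h2ba, a histone H2B gene, was at 2.14, 0.697 and 2.44 CPM against 32.2, 26.7 and 28.6 CPM, a fall of 4.07 on the log2 scale (SE 0.50, edgeR adjusted p = 0.00985), and was higher still in the MYC/Gfi1 tumours at 187 and 158 CPM. Without N1ICD replicate 1 the calls of Foxo6, Rasd2, Robo2, Slc6a2 and Ptgis were lost, with adjusted p from 0.0515 to 0.0820.

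Broad lists of neuronal genes were not called. In 31 neuronal differentiation genes edgeR called 0, with 0 higher and 5 lower at an unadjusted p under 0.05 and 3 lower by DESeq2, shares of the list to set against 9.19% and 3.25% lower over all genes, and the median was -1.52. The median reached 0.29 when 1 library was left out, S100b-cell replicate 2, whose summed level of this list was 1503 CPM against 198 and 349 CPM in the other S100b-cell libraries and 179 to 233 CPM in the N1ICD libraries. Rbfox3, the neuronal nuclear antigen gene, was at 8.15, 1.74 and 4.06 CPM against 23.2, 52.8 and 46.3 CPM (adjusted p = 0.155). Neurod1, a proneural factor of granule neurons, was at 6.43, 0.349 and 0.406 CPM against 3.43, 123 and 9.30 CPM (adjusted p = 0.173), with S100b-cell replicate 2 again the high library. For the 11 mature granule cell, 21 granule cell progenitor and 13 proneural genes tested, edgeR called 0 in each, and 4, 5 and 3 were lower at an unadjusted p under 0.05. DESeq2 called 2, 2 and 1 of them lower, and 1 granule cell progenitor gene was higher by either measure. Their medians were -1.88, -0.98 and -2.56. Without N1ICD replicate 1 those of the mature granule cell and progenitor genes were -3.49 and -2.55, and without S100b-cell replicate 2 those of the progenitor and proneural genes were 0.17 and -0.14.

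**Figure D4:**
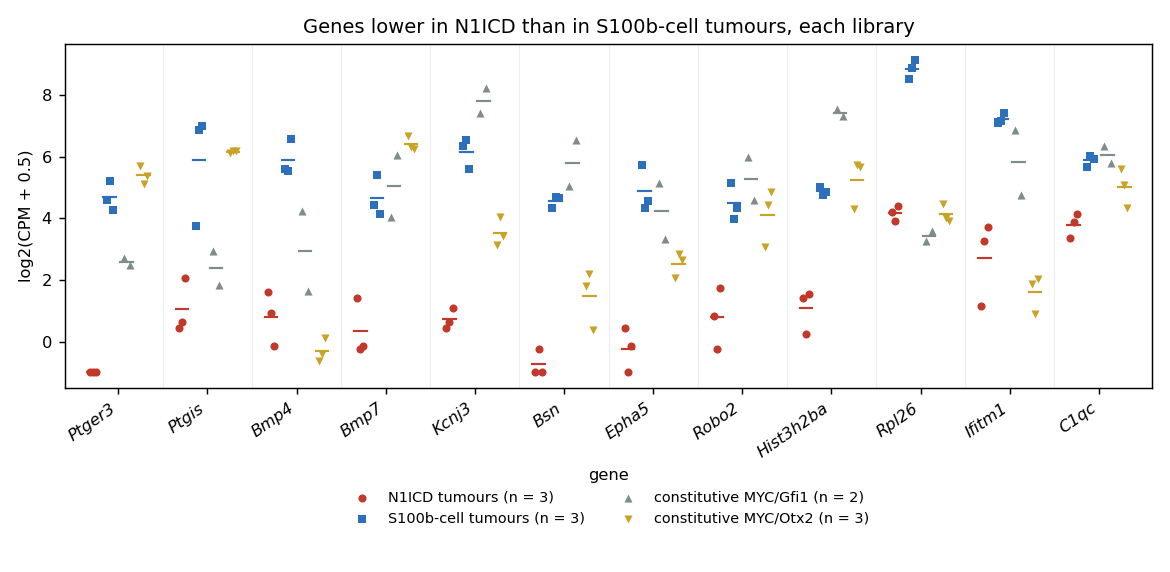
Level of 12 genes called lower in the N1ICD tumours (vertical axis, log2(CPM + 0.5)) in each library, 1 point per library, with a line at each group's mean. The N1ICD libraries are the lowest of the series for Ptger3, Bmp7, Kcnj3, Bsn, Epha5, Robo2, Hist3h2ba and C1qc, and the S100b-cell libraries are the highest for Bmp4, Rpl26 and Ifitm1.

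Immune genes tended to lower levels in the N1ICD libraries, with few calls. Of 24 microglial and macrophage genes 1 fell, 0 rose and 15 were lower without overlap, against 15.1% of all genes, with a median of -1.30. The called gene was C1qc (chromosome 4, 136889804 to 136893065), a complement subunit of microglia, at 9.86, 14.3 and 17 CPM against 50.7, 65.1 and 60.7 CPM (log2 change -2.10 ± 0.37, SE, edgeR adjusted p = 0.0322). The call was lost without N1ICD replicate 1 (edgeR adjusted p = 0.0526). C1qb, its partner, was at 28.7, 50.2 and 65.7 CPM against 183, 264 and 260.1 CPM and did not pass (adjusted p = 0.0968). The summed list was nonetheless highest in N1ICD replicate 1, at 8689 CPM, of which Apoe, a lipid carrier that astroglia also make, was 8390 CPM.

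Antigen presentation genes were at lower levels in the N1ICD libraries without passing. H2-Aa, a chain of an MHC class II molecule, was at 3, 30.7 and 1.62 CPM in the N1ICD replicates and at 207, 216 and 272 CPM in the S100b-cell replicates. H2-Ab1, its partner chain, was at 7.29, 30.7 and 2.84 CPM against 250.1, 289.8 and 273 CPM. Neither passed (adjusted p = 0.121 and 0.141), and N1ICD replicate 2 was the highest of its group in both. In the list of 9 class II genes tested edgeR called 0, but 7 were lower at an unadjusted p under 0.05, DESeq2 called 3 lower, 7 were lower without overlap (15.1% of all genes), and the median was -2.92. For 14 lymphocyte and plasma cell genes edgeR and DESeq2 called 0, with 6 lower at an unadjusted p under 0.05 and a median of -3.00. Depth limits this median. Some members were near the level that the shallower N1ICD libraries could miss, as Cd79b (mean 0 against 1.14 CPM) and Cd3e (0 against 0.693 CPM). Others were above it in the S100b-cell libraries, as Igkc (0 against 11.8 CPM, SD 18.2 CPM). Among 23 interferon and MHC class I genes 0 were called by edgeR and 1 lower by DESeq2 (1 lower at an unadjusted p under 0.05), and the median was -0.69. That median ran from -3.39 without N1ICD replicate 2, when 3 genes were called lower, to 0.67 without S100b-cell replicate 1. Ifitm1 (chromosome 7, 140967221 to 140969825), an interferon-inducible membrane protein gene outside that list, fell from 136, 143 and 171 CPM in the S100b-cell replicates to 1.72, 9.06 and 12.6 CPM in the N1ICD replicates, by 4.26 on the log2 scale (SE 0.73, edgeR adjusted p = 0.0307).

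Medians of several glial lists changed without N1ICD replicate 1. The median of 25 radial glial and astroglial genes was 2.33 with all libraries and -0.19 without N1ICD replicate 1, and edgeR called 0 of them (8 higher at an unadjusted p under 0.05, 5 higher by DESeq2). Slc1a3, a glutamate transporter of astroglia, was at 1402, 4.18 and 26 CPM against 30.1, 40.5 and 44.3 CPM. The median of 12 neural Sox genes likewise went from 2.29 to 0.38, with 0 called by edgeR, and 4 higher and 1 lower both at an unadjusted p under 0.05 and by DESeq2. Ttr, a marker of choroid plexus, was at 4672, 3.14 and 1.22 CPM in the N1ICD and at 0.776, 6.09 and 16.7 CPM in the S100b-cell replicates. The choroid plexus list went from a median of 2.52 to -0.85 without N1ICD replicate 1, with 0 of 9 called by edgeR, 4 higher at an unadjusted p under 0.05 and 2 by DESeq2. In 15 oligodendrocyte genes 0 were called by edgeR, with 1 higher and 1 lower both at an unadjusted p under 0.05 and by DESeq2, and the median was -0.094, which turned to 0.17 without N1ICD replicate 1, with 1 called higher, and was between 0.19 and 0.43 without each S100b-cell library in turn.

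**Figure D5:**
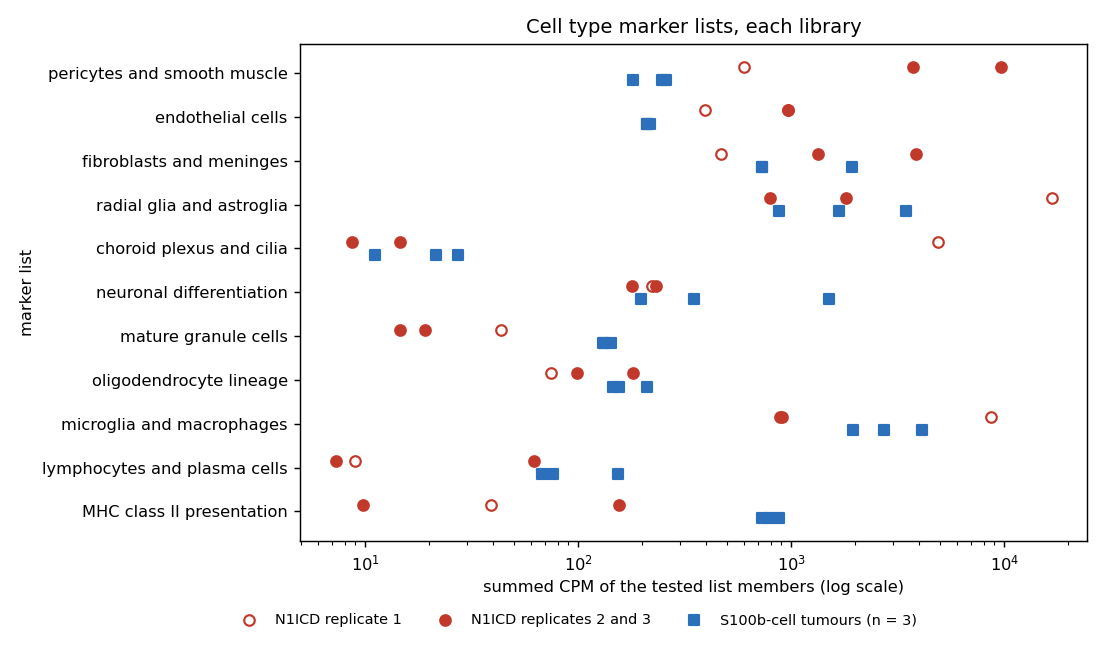
Summed CPM of the tested members of 11 marker lists (horizontal axis, log scale) in each of the 6 libraries, 1 point per library, with N1ICD replicate 1 drawn open. N1ICD replicate 1 is the highest library for radial glia and astroglia, choroid plexus and microglia, and the lowest N1ICD library for pericytes and smooth muscle (603 against 3737 and 9613 CPM, with 181 to 258 CPM in the S100b-cell libraries).

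Growth and cell cycle lists held few calls between the models, as did all genes tested (1.21%). Of 40 cell cycle genes edgeR, DESeq2 and limma-voom called 0 in either direction (1 higher and 2 lower at an unadjusted p under 0.05), with a median of -0.077, which was 0.10 without N1ICD replicate 1 and 0.19 without S100b-cell replicate 1. Birc5, survivin of the dividing cell, was at 352, 621 and 571 CPM against 938, 622 and 675 CPM (adjusted p = 0.365). Of 30 nucleolar MYC targets edgeR called 0 and DESeq2 called 1 lower, with 7 lower at an unadjusted p under 0.05 and a median of -0.39. The fitted change was negative in 26 of the 30 and positive in 4, and 8 were lower without overlap (15.1% of all genes). Ncl, nucleolin, was at 1461, 1807 and 1789 CPM against 2407, 1737 and 2066 CPM, and Npm1, nucleophosmin, at 1615, 2832 and 2301 CPM against 1378, 2065 and 2063 CPM, both with overlapping libraries (adjusted p = 0.538 and 0.746). Bbc3, a cell death gene that p53 induces, was at 122, 58.2 and 110.4 CPM against 327, 259.7 and 303 CPM and fell by 1.62 on the log2 scale (SE 0.33, edgeR adjusted p = 0.0471), the 1 called gene of 18 in the p53 and Arf list (median 0.0056, and -0.28 to 0.23 with 1 library left out).

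A ribosomal protein gene and a mitochondrial ribosomal RNA kept their calls in each alternative run. Rpl26 (chromosome 11, 68901583 to 68906989), a ribosomal protein gene, was at 18, 14.6 and 20.7 CPM in the N1ICD and at 369, 472 and 569 CPM in the S100b-cell replicates, and between 9.09 and 21.6 CPM in the constitutive tumours. It fell by 4.72 on the log2 scale (SE 0.28, edgeR adjusted p = 1.45e-04), and its call held in all 21 alternatives. Processed pseudogenes resemble such genes closely and can take part of their reads, so this value is uncertain. In the list of 40 such genes 1 fell and 0 rose, 29 were lower without overlap (15.1% of all genes), and the median was -0.66. Both ribosomal RNAs of the mitochondrion rose, mt-Rnr2 by 1.88 ± 0.19 and mt-Rnr1 by 1.86 ± 0.23 log2 (SE, edgeR adjusted p = 0.00347 and 0.00985). Levels of mt-Rnr2 were 139200, 181500 and 133900 CPM against 44110, 43290 and 36360 CPM. The messenger RNAs of the same genome did not follow: mt-Nd1 was at 11600, 17830 and 19150 CPM against 17320, 29340 and 20640 CPM (adjusted p = 0.353), and the median of the 9 mitochondrially encoded genes tested was -0.099 (-0.34 to 0.073 with 1 library left out). RNA quality was not given per library, and its part in these values was not tested.

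Genes of fetal growth and of tumour subgroups closed the comparison. The maternally expressed RNA H19 was at 4174, 3982 and 21730 CPM against 237, 209 and 699 CPM, and its imprinted neighbour Igf2, a growth factor, at 209.6, 780.2 and 799 CPM against 7.76, 18.1 and 57.3 CPM. Both were higher in each N1ICD library and neither passed (adjusted p = 0.0875 and 0.0986). In the oncofetal list edgeR called 0 of 9, with 3 higher and 1 lower at an unadjusted p under 0.05, 3 higher by DESeq2 and a median of 0.42 (-0.64 without N1ICD replicate 3). Among 13 photoreceptor genes, a feature of Group 3 medulloblastoma, edgeR and DESeq2 called 0 (1 higher and 1 lower at an unadjusted p under 0.05, median 0.76). Their summed level was only 16.6 to 32.6 CPM in the N1ICD and 16.5 to 26.1 CPM in the S100b-cell libraries. In the MYC/Otx2 tumours it was 261 to 552 CPM. At such low levels the absence of calls does not show that the groups were alike. Of 14 Group 3 markers edgeR called 0, with 4 higher and 4 lower at an unadjusted p under 0.05, 3 higher and 1 lower by DESeq2, and a median of 0.21 (-0.25 without N1ICD replicate 1, with 1 called higher). In the lists described here where edgeR called 0, limma-voom called 1 gene higher in each of the radial glial, fibroblast and oncofetal lists and 0 in the others.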

How the data were processed

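RNA was measured by 3′ sequencing of 11 tumour libraries. The authors deposited raw counts per gene, and the submitters' processing notes name STAR 2.4.1d, HTSeq 0.6.1 and mm10. Per the labels' protocols, molecular identifiers were added in library preparation; whether counts were collapsed by them, or used strand, is not stated in these sources. Columns were matched to samples by their descriptions, with 0 left unmatched.

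Here, genes passing edgeR's filterByExpr (15228 of 38406) were fitted with edgeR 4.0.16 (TMM factors, robust quasi-likelihood, 4 groups in 1 fit), and p-values were adjusted by Benjamini-Hochberg over all genes tested at a threshold of 0.05. Each SE was derived from the test, as the size of the log2 change over the square root of its F statistic, and is approximate. Levels are CPM over TMM-scaled library sizes, and the unscaled library totals ran from 2.58 to 15.19 M counts. Alternatives were other factors and filters, DESeq2 1.42.0, limma-voom (limma 3.58.1), the 6 libraries alone, a replicate block, thinning, no mitochondrial genes, and each library left out. Gene positions come from GENCODE M21 (184 of 185 called genes). The genes named were those in the labels, up to 15 largest rises and falls at 10 CPM or more without overlap, and up to 6 called and 3 other genes per list. The members and lists were chosen with earlier results of these data known.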

Additional observations from a re-analysis of the deposited data

How the results depend on the processing

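Called genes numbered 185 (123 higher, 62 lower) and 1360 (865 and 495) with DESeq2, 83 (58 and 25) with the 6 libraries alone and 131 (113 and 18) with limma-voom. With a replicate block 59 were called (42 and 17). Deviations from the group mean correlated at -0.169, -0.059 and -0.0034 between same-numbered libraries of the N1ICD and S100b-cell groups. So few libraries cannot decide whether equal numbers mark a shared day or animal, which the labels do not state. Leaving out each library in turn gave 9 to 283 calls, 5 to 201 higher and 4 to 109 lower. The share called higher was 66.5%, and 86.3% with limma-voom, 55.3% with no filter, 76.7% without N1ICD replicate 1, 52.8% without S100b-cell replicate 1 and 55.6% without S100b-cell replicate 3. No called gene named here reversed, which the lack of overlap between their libraries largely fixed. Calls were less stable: over the 55 called genes named here, they were lost in 331 of 1144 results. Tal1 lost its call in 12 of 20 alternatives with a value, Msx1 in 13 of 20 and Crispld2 in 14 of 20. Abcc9, Bbc3 and Rbpms2 each lost it in 12 of 21, and Jag1 in 14 of 21. Uncalled genes that did, with 1 library left out at a time, ran in log2 change from -1.35 (without N1ICD replicate 1) to 4.23 in Slc1a3, from -1.81 (without N1ICD replicate 1) to 8.83 in Ttr, from -1.25 (without N1ICD replicate 1) to 8.16 in Otx2, from -1.39 to 0.20 (without S100b-cell replicate 1) in Gfi1 and from -1.17 to 0.47 (without S100b-cell replicate 3) in S100b, which was at 0.61 with limma-voom. The cause was not tested. The N1ICD libraries' depth limits what can be said of genes near 1 CPM there.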

Other observations

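Some called genes outside the lists were picked after their values were seen, and are given as values alone. Among them, 4 genes were lower in the N1ICD tumours. Per1, a clock gene, was at 10.7, 6.97 and 7.30 CPM in N1ICD replicates 1 to 3 and at 26.4, 44.3 and 52.9 CPM in S100b-cell replicates 1 to 3 (edgeR adjusted p = 0.0187). Fkbp5, a chaperone partner of steroid receptors, was at 7.29, 9.76 and 11 CPM against 32.1, 43.4 and 49 CPM (edgeR adjusted p = 0.0459), a call lost without N1ICD replicate 1 (edgeR adjusted p = 0.0848). Mt2, a metal-binding metallothionein, was at 142, 49.5 and 103 CPM against 582, 1029 and 760.2 CPM (edgeR adjusted p = 0.0217), and Cebpb, a transcription factor of stress responses, at 37.7, 44.3 and 33.7 CPM against 87.2, 91.3 and 120.2 CPM (edgeR adjusted p = 0.0241).

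Other genes were higher in all 3 N1ICD libraries. Pvrl3, the cell adhesion protein nectin 3, was at 87.9, 86.5 and 106 CPM against 6.02, 5.26 and 3.52 CPM (edgeR adjusted p = 7.36e-04). Slc1a4, a transporter of neutral amino acids, was at 291, 138 and 216 CPM against 22.3, 22.7 and 18.8 CPM (edgeR adjusted p = 0.00109). Atp2b4, a calcium pump of the cell membrane, was at 713, 581 and 314 CPM against 20.1, 18 and 35.2 CPM (edgeR adjusted p = 0.00123), and Pxdn, a peroxidase of basement membranes, at 138, 31 and 36.1 CPM against 1.10, 1.45 and 1.17 CPM (edgeR adjusted p = 0.00481). Calls for Pvrl3, Slc1a4 and Atp2b4 held in all 21 alternatives run.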
